A study of Mus musculus with 6 samples.

Results

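The genes described here build the desmosome and its plaque in EpH4 cells, a near-normal mouse mammary epithelial cell line that was carried through an epithelial to mesenchymal transition (EMT) and back. They were given as a list of 10 gene symbols, chosen by what the encoded proteins do: the desmosomal cadherins *Dsg2* and *Dsc2*, the armadillo proteins *Jup*, *Pkp1*, *Pkp2* and *Pkp3*, the plakin linkers *Dsp*, *Ppl* and *Evpl*, and the membrane protein gene *Perp*. All 10 were found by symbol among the 17428 genes of the RNA sequencing table, and all 10 passed the filter on low values that 13893 genes passed. Untreated cells (E cells) were compared with cells kept for 7 days with the cytokine TGFβ1 (M cells) and with cells kept for 7 days with TGFβ1 and then for 4 days without it (RE cells), with 2 libraries for each state. All 3 states are cultures of this 1 cell line, and the labels name no other agent. The labels give the libraries of a state only a replicate number. The study's methods call them biological replicates without saying how they were kept apart, so the p-values below rest on the spread between such libraries. That spread was pooled over the 3 states for each gene and drawn toward a trend over all genes. A gap between the E libraries therefore also enters the p-values of M vs. RE.

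Desmosomes are button-like junctions that hold neighbouring epithelial cells together and tie their surfaces to keratin filaments. Desmogleins and desmocollins bind each other across the gap between cells, plakoglobin (*Jup*) and the plakophilins bind the tails of these cadherins on the inner face, and desmoplakin (*Dsp*) connects this plaque to keratin. Periplakin (*Ppl*) and envoplakin (*Evpl*) are related linkers that sit at the desmosome and, in stratified epithelia, are among the first proteins built into the cornified envelope. PERP (*Perp*) is a small desmosomal membrane protein whose gene is induced by p53 and p63.

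The deposited values behave as sequenced bases per gene rather than as read counts. They are given here as ppm, the share of a library's bases after normalization, where 1 read covers 50 bases, and the libraries held between 35782513 and 47928557 reads' worth of bases. The least covered value of any of the 10 genes was 260.78 reads' worth (*Ppl* in M cells) and the highest was 38958.78 (*Jup* in M cells). E libraries differed more from each other than the others did: the SD of the log2 difference over all genes tested was 0.558 between the E libraries, 0.318 between the M libraries and 0.309 between the RE libraries. Among the 10 genes, only *Dsg2* and *Pkp1* lay more than 1.5-fold apart within a state, in both cases between the E libraries. Of the mammary epithelial markers, *Krt8*, *Krt18*, *Epcam* and *Cdh1* were expressed in all 6 libraries, while *Krt19* stayed at or below 0.16 ppm. *Epcam* was called lower than in E cells in M and RE cells (log2 −1.26 and −1.23, limma adjusted p = 0.000621 and 0.00153). *Krt18* was called lower in RE than in E cells (−1.34, adjusted p = 0.00305), and *Krt8* lower in RE than in M cells (−1.32, adjusted p = 0.000529). *Cdh1* was not called in any comparison. Over the marker lists, the summed level of the mammary epithelial genes was 1398 to 1728 ppm in E cells, 1270.5 to 1312 ppm in M cells and 793 to 846 ppm in RE cells. That of the mesenchymal genes *Vim*, *Fn1*, *Zeb2* and *Cdh2* was 2399 to 5301 ppm, 18147 to 18437 ppm and 10606 to 11622 ppm, nearly all of it *Fn1*. *Vim*, *Zeb2* and *Cdh2* had the same order of states, with RE cells between E and M cells. The list of basal or squamous genes, in which *Krt5* was near 0 and *Krt14* was not, summed to 309 to 378 ppm, 713 to 812 ppm and 497 to 499.7 ppm. Most of this sum was *Krt14* (315 and 223 ppm in E, 666 and 755 ppm in M, 324 and 336 ppm in RE cells). The other genes of the list did not share its order of states. *Krt10* was called lower in M than in E cells (−1.27, limma adjusted p = 0.00344), and *Trp63* was highest in RE cells. The list's median log2 fold change was −0.49 in E vs. M and 1.52 in M vs. RE. The leukocyte list summed to at most 9.31 ppm, nearly all of it *Cd68*, with *Ptprc* at or near the limit of detection. The endothelial list summed to at most 2.62 ppm, with *Kdr* at or under the limit of detection. *Cdh5* was at 0 in both E libraries, at 2.33 and 2.07 ppm in M cells and at 0.0423 and 0.0910 ppm in RE cells. Only the M libraries carried *Cdh5* past the filter on low values. Its calls in E vs. M and in M vs. RE rest on that selection, and their p-values are not given. The fibroblast list summed to 17.8 to 19.8 ppm in E cells, 29.9 to 33.2 ppm in M cells and 77.9 to 95.9 ppm in RE cells. Nearly all of this sum was *Pdgfra*, and *Thy1* was at or under the limit of detection. *Pdgfra* and *Dcn* were higher in RE than in E cells, by 2.18 and 2.45 on the log2 scale (limma adjusted p = 0.000318 and 0.00599). In M cells they parted: *Dcn* was called lower than in E cells (adjusted p = 0.00527), from 0.496 and 0.301 ppm to 0 and 0.0068 ppm. *Pdgfra* was higher in M than in E cells by 0.78 and was not called. In such bulk libraries, fewer cells that express a gene and less RNA of that gene per cell cannot be told apart, and how far the shifts in these lists bear on the results below was not tested.

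The 10 genes did not move as a block with TGFβ1. In E vs. M, 4 genes were higher in M cells (*Jup*, *Pkp1*, *Pkp2* and *Dsg2*), 3 were lower (*Ppl*, *Perp* and *Evpl*) and 3 were not called (*Pkp3*, *Dsp* and *Dsc2*). A gene was called when its level differed by more than 2-fold (a log2 fold change beyond 1) with an adjusted p below 0.01 in limma, adjusted over all genes tested. By this rule 17% of all genes tested were called in E vs. M, 8.58% as higher and 8.39% as lower in M cells. The median log2 fold change over the 10 genes was 0.04, beside 0.001 over all genes tested. In M vs. RE, 2 of the 10 genes were called higher in RE cells (*Ppl* and *Perp*) and 4 lower (*Jup*, *Pkp1*, *Pkp2* and *Dsg2*), while 12.9% of all genes were called, 8.08% as higher and 4.79% as lower. The median over the 10 genes was −0.37, beside −0.02 over all genes. E vs. RE called none of the 10, against 9.37% of all genes (6.2% higher and 3.17% lower), and had a median of −0.19 over the 10, beside 0.01. E vs. M and M vs. RE share the M libraries, and E vs. M and E vs. RE share the E libraries, so these counts are not independent of each other. Higher calls were 50.6% of all calls in E vs. M, and 30.5% with scaling by library totals alone. In M vs. RE these shares were 62.8% and 73.8%.

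**Figure D1:**
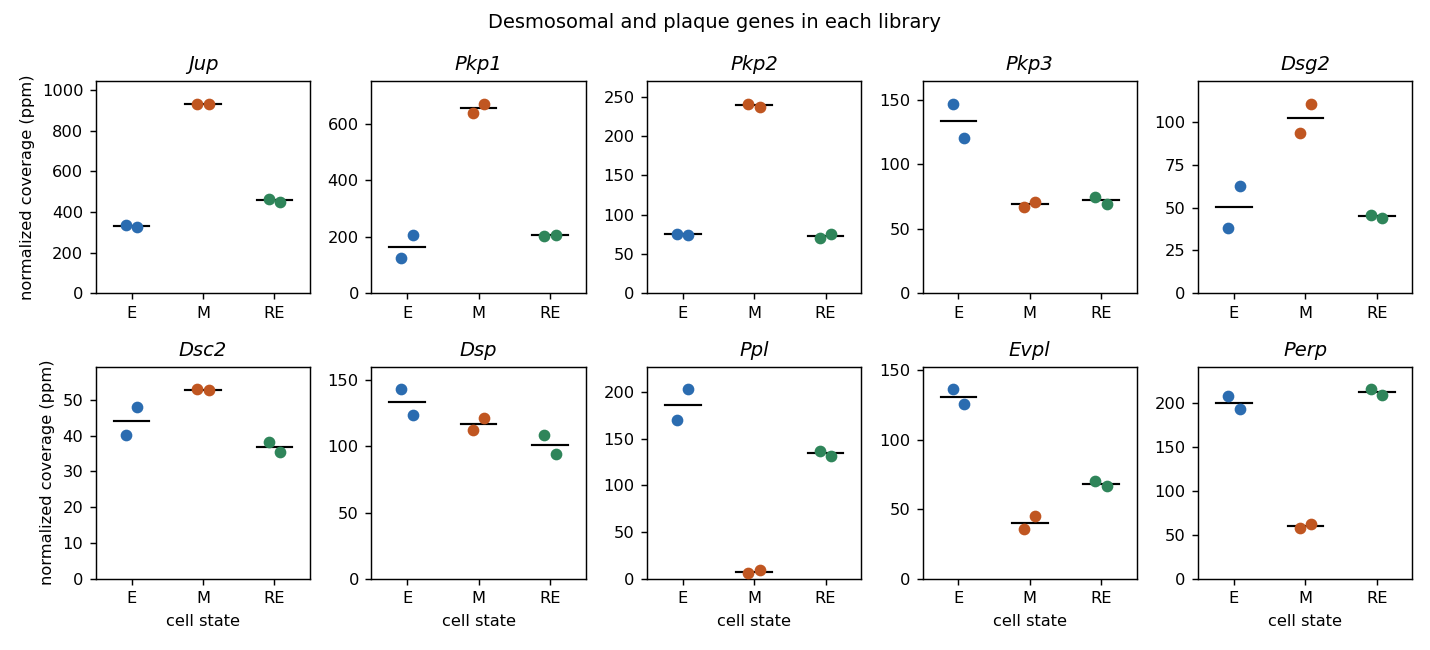
Normalized coverage (ppm, vertical axis from 0) of the 10 genes in each of the 6 libraries, by cell state (E untreated, M with TGFβ1, RE after withdrawal). Points are libraries and bars are the means of 2 libraries. *Jup*, *Pkp1*, *Pkp2* and *Dsg2* stand highest in M cells, *Ppl*, *Perp* and *Evpl* lowest in M cells, and *Pkp3* is at about the same level in M and RE cells, below E cells.

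*Jup*, the gene of plakoglobin, the armadillo protein shared by desmosomes and adherens junctions, had the most RNA coverage of the 10 per length in M cells. *Jup* stood at 338 and 325 ppm in the E libraries, 934 and 930 ppm in the M libraries and 465 and 449 ppm in the RE libraries. The 3 states did not overlap, and the second library of a state was 0.961 to 0.996 times the first. *Jup* rose by 1.49 on the log2 scale in E vs. M (SE 0.13, limma adjusted p = 0.000143), which is 2.81-fold between the means of 331 ± 9.27 and 932 ± 2.33 ppm (SD, n = 2). It fell in M vs. RE by 1.03 (SE 0.13, limma adjusted p = 0.00097), a value just past the fold threshold. Leaving out any M or RE library, in turn, ended this call (adjusted p between 0.0176 and 0.0226), as did scaling by library totals (fall of 0.82). RE cells held 138% of the E level, a log2 difference of 0.46 (95% interval 0.17 to 0.76, limma adjusted p = 0.0309) that was not called.

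Sequence upstream of the start of *Jup* and of *Dsp* is printed here. *Jup* encodes a plaque protein, and its RNA was among those that rose with TGFβ1. *Dsp* encodes the keratin linker of the plaque, and its RNA was not called in any comparison. Of the 10 genes, *Jup* and *Dsp* were matched in the RefSeq promoter table used (build GRCm38.p6). *Pkp1*, *Pkp2*, *Pkp3*, *Dsg2*, *Dsc2*, *Ppl*, *Evpl* and *Perp* are named only. Each run is the 250 bases before the start on the strand of the gene, 5′ to 3′, with the GC-box letters GGGCGG, on either strand (CCGCCC on the other), in capitals.
*Jup*, chr11:100397791-100398040, minus strand: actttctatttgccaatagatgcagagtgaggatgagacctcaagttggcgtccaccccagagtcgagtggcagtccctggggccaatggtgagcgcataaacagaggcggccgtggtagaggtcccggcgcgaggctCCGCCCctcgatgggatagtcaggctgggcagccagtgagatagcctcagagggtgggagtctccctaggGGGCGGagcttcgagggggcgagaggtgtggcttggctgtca
*Dsp*, chr13:38151044-38151293, plus strand: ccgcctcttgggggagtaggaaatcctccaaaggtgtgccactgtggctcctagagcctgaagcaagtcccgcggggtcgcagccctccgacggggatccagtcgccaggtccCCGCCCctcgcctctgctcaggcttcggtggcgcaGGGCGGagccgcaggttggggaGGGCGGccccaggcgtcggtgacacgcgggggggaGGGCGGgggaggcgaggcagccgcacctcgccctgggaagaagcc
The *Jup* stretch held 2 of these GC boxes and the *Dsp* stretch 4, with a GC content of 62.0% and 72.4%. GGGCGG was found in 32.7% of the 32851 promoters of the table over the same 250 bases, and was chosen after these sequences had been seen. The E-box letters CAGGTG, the core read by the Snail and Zeb repressors that act in EMT, were not found in the *Jup* window of 250 bases before to 50 bases after the start, and occurred once in the *Dsp* window, beginning at position 4 (counted from 1 at the start), where 20.2% of all promoters held them on either strand. The 30 bases around this match are shown with the E-box in capitals.
*Dsp*, chr13:38151285-38151314, plus strand: gaagaagccgacCAGGTGtggcctgggcgc
The AP-1 letters TGANTCA and the Grainyhead letters AACCNGTT, present in 7.81% and 2.09% of all promoters on either strand, were in neither window. These matches describe the letters and show no binding.

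The plakophilins, armadillo proteins that strengthen the plaque and gather desmoplakin to it, did not move together. *Pkp1* was at 123 and 207 ppm in E cells, 638 and 671 ppm in M cells and 202 and 206 ppm in RE cells. The M libraries lay above all others, and the E libraries spanned the RE level. *Pkp1* rose 3.96-fold in E vs. M, by 2.03 on the log2 scale (SE 0.23, limma adjusted p = 0.000483), from 165 ± 59.4 to 654 ± 23.3 ppm (SD, n = 2), the largest called rise among the 10 genes. It fell by 1.68 in M vs. RE (SE 0.23, limma adjusted p = 0.00145), a call that was lost when any M or RE library was left out (adjusted p between 0.0171 and 0.022). E vs. RE gave 0.36 (95% interval −0.18 to 0.89, limma adjusted p = 0.271), and −0.02 without the first E library. Other genes moved with the gap between the E libraries as well: *Fn1* was at 2379 and 5276 ppm in the first and second E library, *Zeb2* at 10.9 and 17.7 ppm and *Vim* at 6.52 and 3.16 ppm, and their part in the *Pkp1* values was not tested.

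*Pkp2*, the plakophilin of simple epithelia and heart, rose with TGFβ1 and fell after its withdrawal. The E libraries gave 75.6 and 73.8 ppm, the M libraries 241 and 237 ppm and the RE libraries 70.8 and 75.8 ppm, so the M libraries stood clear of E and RE libraries, which overlapped. The rise in E vs. M was 1.68 on the log2 scale (SE 0.12, limma adjusted p = 6.6e-05), or 3.20-fold. The fall in M vs. RE was 1.71 (SE 0.12, limma adjusted p = 6.58e-05). RE cells held 98.1% of the E level, and the 95% interval of the E vs. RE difference ran from −0.31 to 0.25 on the log2 scale.

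*Pkp3*, the plakophilin with the broadest epithelial distribution, was lower in M and RE cells than in E cells by a little less than the 2-fold threshold. It was at 147 and 120 ppm in E cells, 66.8 and 71.0 ppm in M cells and 74.7 and 69.0 ppm in RE cells. Both E libraries exceeded all M and RE libraries, and M and RE libraries overlapped. The log2 difference was −0.95 in E vs. M (SE 0.14, limma adjusted p = 0.00187) and −0.89 in E vs. RE (SE 0.14, limma adjusted p = 0.00451). Both passed the p threshold and lay just under the 2-fold threshold, beside 23.9% and 13% of all genes with an adjusted p below 0.01 at any fold in these comparisons. Without the second E library the 2 differences were −1.11 and −1.03 and were called, and with scaling by library totals E vs. M was called at −1.25. M vs. RE gave 0.06 (95% interval −0.27 to 0.40), with −0.00060 once a GC content and length trend was removed. Relative to the mean of the E libraries, *Pkp3* stood at 51.5% in M cells and 53.8% in RE cells.

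Per length, the make-up of the plakophilins changed with each state. Of the summed plakophilin coverage per kilobase of transcript, *Pkp3* made up 43.1 ± 8.35% in E cells, 9.60 ± 0.216% in M cells and 26.3 ± 1.62% in RE cells (SD, n = 2). The share of *Pkp1* was 32.8 ± 10.1%, 57.0 ± 0.861% and 46.8 ± 0.450%, and that of *Pkp2* was 24.0 ± 1.74%, 33.4 ± 1.08% and 26.9 ± 1.18%. For *Pkp3* no 2 states overlapped, and the ratio of *Pkp1* to *Pkp3* per kilobase was 0.524 and 1.07 in E cells, 5.97 and 5.91 in M cells and 1.69 and 1.87 in RE cells. The level of *Pkp3* itself differed little between M and RE cells (means of 68.9 and 71.8 ppm), while *Pkp1* and *Pkp2* were lower in RE cells. With 2 libraries against 2, an exact permutation test cannot reach a p below 0.05, so these shares are given without a test. They depend on the length taken for each gene: over protein-coding length, *Pkp3* made up 34.2%, 6.53% and 19.0%, in the same order.

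**Figure D2:**
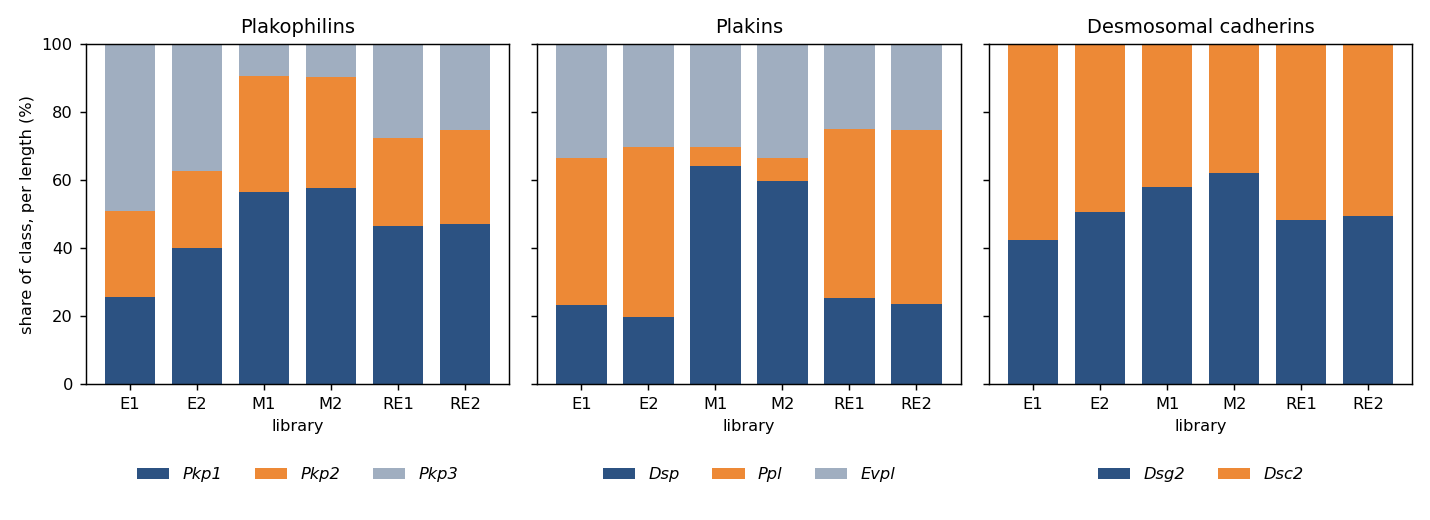
Share of each gene in its class (percent of the summed coverage per kilobase of transcript, vertical axis) in each library, for plakophilins, plakins and desmosomal cadherins. On average *Pkp3* takes 43.1% in E cells and 9.60% in M cells, *Ppl* 46.5% and 6.19%, and *Dsp* 21.6% and 61.9%.

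The plakins, large linkers between the plaque and the cytoskeleton, held the largest change of the 10 genes. *Ppl* was at 170 and 203 ppm in E cells, 6.25 and 9.09 ppm in M cells and 137 and 131 ppm in RE cells. The M libraries were far below every other library, and the RE libraries were below both E libraries. In E vs. M *Ppl* fell by 4.60 on the log2 scale (SE 0.20, limma adjusted p = 9.79e-06), to 4.12% of the E level, which ranked 110 of 13893 genes tested by the size of the change. In M vs. RE it rose by 4.14 (SE 0.20, limma adjusted p = 1.43e-05), rank 139. The RE level was 72.1% of the E level, a log2 difference of −0.47 (95% interval −0.92 to −0.01, limma adjusted p = 0.108) that was not called.

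*Evpl*, which forms a heterodimer with periplakin, was lowest in M cells and intermediate in RE cells. Its values were 136 and 126 ppm in E cells, 35.5 and 45.2 ppm in M cells and 70.3 and 66.5 ppm in RE cells, with no overlap between any states. *Evpl* fell by 1.71 in E vs. M (SE 0.15, limma adjusted p = 0.000173), to 30.8% of the E level. M vs. RE gave 0.77 (SE 0.15, limma adjusted p = 0.00803) and E vs. RE −0.94 (SE 0.15, limma adjusted p = 0.00465), both past the p threshold and under the 2-fold threshold. E vs. RE was called with scaling by library totals (−1.03) and once a GC content and length trend was removed (−1.19). RE cells held 52.1% of the E level of *Evpl*.

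*Dsp*, the obligate keratin linker of the desmosome, was not called in any comparison. It was at 143 and 123 ppm in E cells, 113 and 121 ppm in M cells and 108 and 94.1 ppm in RE cells. The states lay in a descending order without overlap, but with small steps. E vs. M gave −0.18 on the log2 scale (95% interval −0.52 to 0.15, limma adjusted p = 0.333), M vs. RE −0.21 (−0.54 to 0.12, adjusted p = 0.299) and E vs. RE −0.40 (−0.73 to −0.06, adjusted p = 0.0717). Once a GC content and length trend was removed, E vs. M gave −0.63 and E vs. RE −0.86, also not called. In the annotation of a later build, 5.2% of the exon length of *Dsp* is shared with a gene on the other strand, and 3.99% of that of *Dsg2*, and whether counting used strand is not given in the sources used here.

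Within the plakins the order of levels per length changed with the state. *Dsp* per kilobase was 0.546 and 0.394 of *Ppl* in the E libraries, 11.7 and 8.65 times *Ppl* in the M libraries, and 0.512 and 0.464 of *Ppl* in the RE libraries. *Ppl* took 46.5 ± 4.996% of plakin coverage per length in E cells, 6.19 ± 0.997% in M cells and 50.4 ± 0.975% in RE cells (SD, n = 2). *Dsp* took 21.6 ± 2.63%, 61.9 ± 3.13% and 24.6 ± 1.21%. Its own level was not called in E vs. M (log2 −0.18), while *Ppl* and *Evpl* were lower in M cells. *Evpl* held 31.9% in both E and M cells and 25 ± 0.240% in RE cells, below each library of the other states. *Ppl* to *Evpl* per kilobase was 1.28 and 1.65 in E cells, 0.181 and 0.206 in M cells and 2.00 and 2.03 in RE cells, so the ratio of the partners was higher in both RE libraries than in either E library.

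The desmosomal cadherins, the adhesion molecules themselves, had changes close to or under the thresholds. *Dsg2*, the desmoglein found in all desmosome-bearing tissues, was at 38.0 and 62.8 ppm in E cells, 93.7 and 111 ppm in M cells and 45.7 and 44.2 ppm in RE cells. The M libraries were the highest, and the E libraries spanned the RE libraries. *Dsg2* rose in E vs. M by 1.06 (SE 0.23, limma adjusted p = 0.00902) and fell in M vs. RE by 1.18 (SE 0.23, limma adjusted p = 0.00747). Both calls were close to the thresholds: the first was lost in 13 of 20 alternative settings, among them 0.70 without the first E library and adjusted p values of 0.0252 to 0.0793 without any M or RE library. The second was lost in 6 of 20, also without any M or RE library (adjusted p = 0.0416 to 0.0715), with its value between −0.97 and −1.30 over all 20. Of the 20, the looser fold threshold and the looser p threshold could not end a call. E vs. RE gave −0.12 (95% interval −0.66 to 0.42, limma adjusted p = 0.716), and 0.24 without the second E library. The gap between the E libraries in *Dsg2* ran in the same direction as those in *Pkp1* and *Fn1*, and its part in the result was not tested.

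*Dsc2*, the desmocollin that pairs with desmoglein 2, stood at 40.3 and 47.9 ppm in E cells, 52.9 and 52.8 ppm in M cells and 38.2 and 35.3 ppm in RE cells. No states overlapped, with M cells highest and RE cells lowest. The log2 differences were 0.27 in E vs. M (95% interval −0.06 to 0.60, limma adjusted p = 0.168), which turned to −0.034 with scaling by library totals, −0.52 in M vs. RE (−0.85 to −0.19, adjusted p = 0.0271) and −0.26 in E vs. RE (−0.59 to 0.07, adjusted p = 0.201). None was called. Per kilobase, *Dsg2* was 0.738 and 1.03 of *Dsc2* in E cells, 1.38 and 1.64 in M cells and 0.935 and 0.979 in RE cells, so the ratio was higher in both M libraries than in any other library. Whether it lies above or below 1 depends on the length taken for each gene.

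*Perp* fell with TGFβ1 and rose after its withdrawal. Its values were 208 and 193 ppm in E cells, 58.0 and 62.2 ppm in M cells and 216 and 209 ppm in RE cells. Both M libraries were well below the rest, and the RE libraries lay just above the E libraries. The fall in E vs. M was 1.74 on the log2 scale (SE 0.12, limma adjusted p = 6.52e-05), to 29.97% of the E level, and *Perp* rose by 1.82 in M vs. RE (SE 0.12, limma adjusted p = 5.6e-05). E vs. RE gave 0.09 (95% interval −0.20 to 0.38, limma adjusted p = 0.628) and −0.0093 with scaling by library totals.

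**Figure D3:**
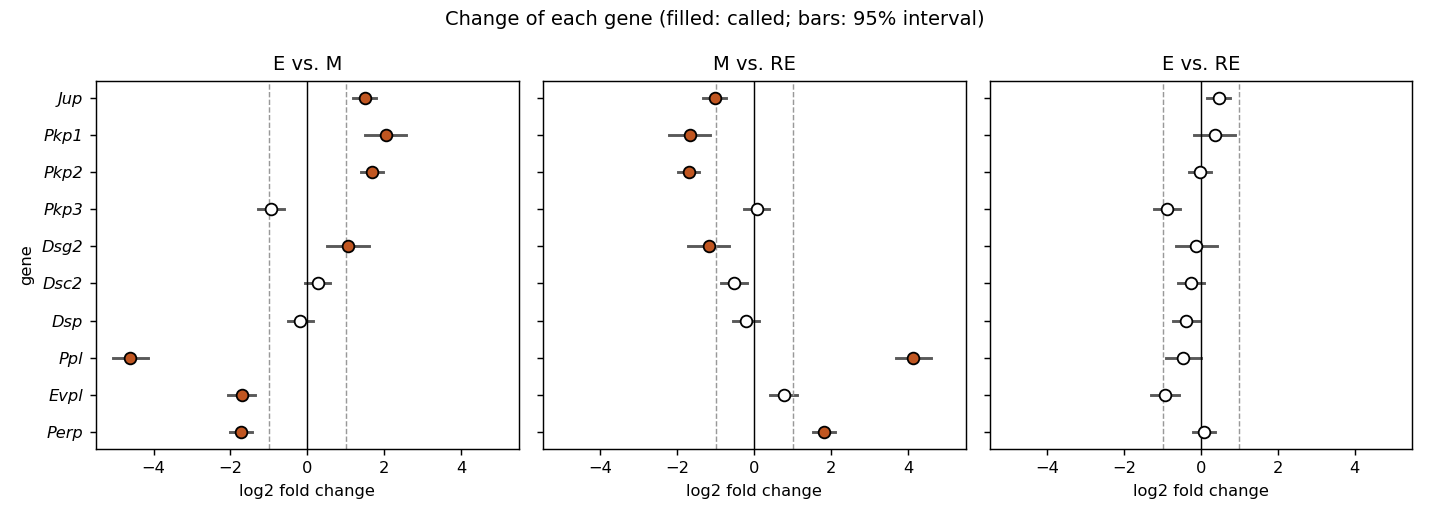
Log2 fold change of each of the 10 genes in E vs. M, M vs. RE and E vs. RE (horizontal axis), with 95% intervals from limma. In E vs. M the values run from −4.60 (*Ppl*) to 2.03 (*Pkp1*), and in E vs. RE all lie within the 2-fold threshold, with *Evpl* (−0.94) and *Pkp3* (−0.89) nearest to it.

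In E vs. RE, where limma called 0 of the 10 genes, 5 had an unadjusted p below 0.05 (*Pkp3*, *Evpl*, *Jup*, *Dsp* and *Ppl*), a share near the 43.5% of all genes tested, and 2 an adjusted p below 0.01 (*Pkp3* and *Evpl*), beside 13% of all genes. *Pkp2*, *Perp*, *Dsg2* and *Pkp1* had RE levels of 98.1%, 106%, 89.1% and 124% of the E level, and intervals that include no difference. In E vs. M the libraries of the states did not overlap in any of the 10 genes (5 higher and 5 lower), where 70.6% of all genes tested did not overlap (35.5% higher and 35% lower). In M vs. RE they did not overlap in 9 genes (3 higher and 6 lower), beside 78.1% of all genes (37.9% and 40.2%). For E vs. RE the number was 7 (2 higher and 5 lower), beside 66.7% (34.2% and 32.5%). In M vs. RE the exception was *Pkp3*, and in E vs. RE the exceptions were *Dsg2*, *Pkp1* and *Pkp2*. The summed level of the 10 genes was 1418 and 1482 ppm in the E libraries, 2238 and 2311 ppm in the M libraries and 1428 and 1381 ppm in the RE libraries, so the sum was higher in M cells although 5 of the 10 genes were lower there.

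The order of the 10 genes per kilobase of transcript differed between the states. In E cells *Jup* (103 ± 2.89 ppm per kilobase; SD, n = 2) and *Perp* (103 ± 5.36) led and could not be separated, followed by *Pkp3* (45.8 ± 6.37), *Pkp1* (35.4 ± 12.7) and *Ppl* (29.97 ± 3.77), with *Pkp1* overlapping both neighbours. *Pkp2* (25.6), *Evpl* (20.6) and *Dsp* (13.9) followed, and *Dsc2* (9.78) and *Dsg2* (8.74) overlapped at the lower end. In M cells *Jup* (291) and *Pkp1* (140.1) led, then *Pkp2* (81.9), *Perp* (30.8), *Pkp3* (23.6) and *Dsg2* (17.7). *Dsp* (12.2) and *Dsc2* (11.7) lay within the spread of *Dsp*, *Evpl* (6.33) was next and *Ppl* (1.23) was last. In RE cells *Jup* (143) and *Perp* (109) again led, then *Pkp1* (43.7), with *Pkp2* (25.1) and *Pkp3* (24.6) overlapping, then *Ppl* (21.6), *Evpl* (10.7) and *Dsp* (10.55) overlapping, and *Dsc2* (8.15) and *Dsg2* (7.79) overlapping. *Ppl* thus held place 5 in E cells, 10 in M cells and 6 in RE cells by the means. *Jup* was at the top in M and RE cells and level with *Perp* in E cells. The order depends on the length taken for each gene: *Perp* has 579 coding bases in a transcript of 1952, and *Jup* 2235 in 3205. Over protein-coding length the order of the 10 genes is not given.

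**Figure D4:**
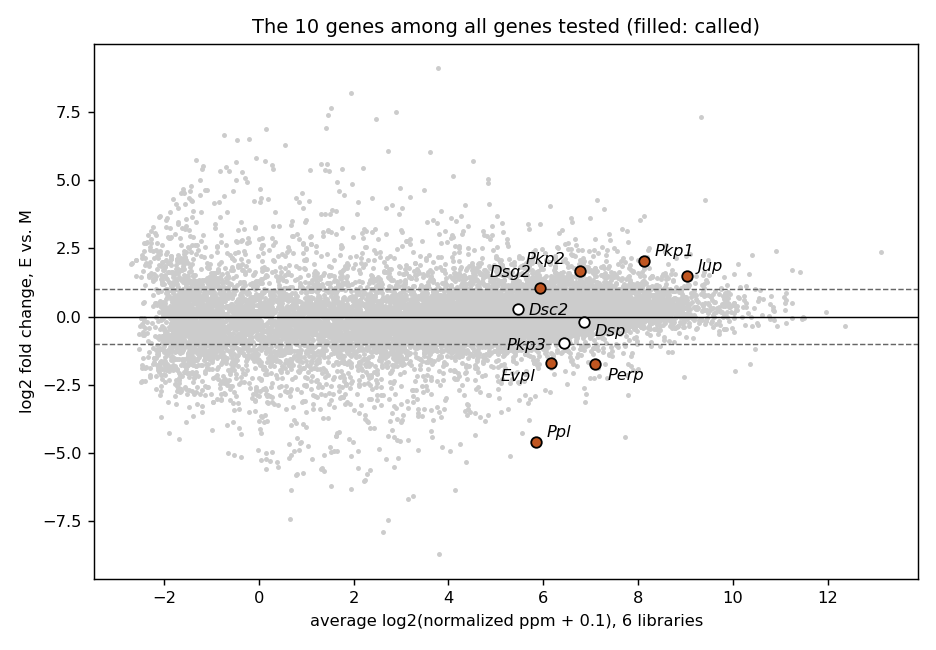
Log2 fold change in E vs. M (vertical axis) against the average log2(ppm + 0.1) over the 6 libraries (horizontal axis) for the 13893 genes tested (grey), with the 10 genes as large points, filled where called, and dashed lines at the 2-fold threshold. The 10 genes sit in the well-covered right part of the plot, on both sides of 0, with *Ppl* lowest at −4.60.

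Genes whose pattern over the 6 libraries lay nearest to the largest called rise and the largest called fall were taken by the distance between log2 values after each gene's mean was subtracted, among 10086 genes of sufficient level. Nearest to *Pkp1* were *Cubn* (distance 0.19, Pearson r = 0.996 over 6 libraries), at 7.02 and 12.6 ppm in E cells, 40.9 and 38.0 ppm in M cells and 13.1 and 13.3 ppm in RE cells, then *Cd44* (distance 0.23) and *Skil* (distance 0.27). These 3 shared with *Pkp1* the higher value in the second E library. Among the nearest to *Ppl* were *Tprg* (distance 0.92, r = 0.993), at 13.9 and 10.7 ppm, 0.694 and 0.831 ppm, and 10.8 and 11.2 ppm, and *Dlk2* (distance 0.94). These genes lay further from *Ppl* than the neighbours of *Pkp1* from it. The points of each correlation share libraries and a normalization, so the values are a description.

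Other desmosomal genes did not follow 1 direction either. Of 11 genes in a list of further desmosomal cadherins, plakophilins and partners, 6 were in the table and 5 were tested, and 1 was higher and 2 lower in M cells in E vs. M. Of all genes tested, 8.58% were called higher and 8.39% lower in this comparison. *Dsg3*, a desmoglein of stratified epithelia, was at 0.291 and 0.468 ppm in E cells, 5.34 and 7.37 ppm in M cells and 6.55 and 5.45 ppm in RE cells. It rose by 3.76 in E vs. M (limma adjusted p = 7.63e-05) and was called in E vs. RE (3.69, adjusted p = 0.000366), while M vs. RE gave −0.07, which turned to 0.13 with scaling by library totals. *Cdsn*, which encodes the corneodesmosome glycoprotein corneodesmosin, went the other way, from 14.6 and 40.3 ppm in E cells to 0.411 and 0.864 ppm in M cells and 3.54 and 2.94 ppm in RE cells. It fell by 5.12 in E vs. M (limma adjusted p = 0.000219) and was lower in RE than in E cells by 2.87 (adjusted p = 0.00533), with 2.25 in M vs. RE not called (adjusted p = 0.0113). Without the first or the second E library the values were −5.84 and −4.41 in E vs. M and −3.60 and −2.14 in E vs. RE, and the E vs. RE call was lost without any M or RE library (adjusted p = 0.0104 to 0.0488). It was also lost without a filter (adjusted p = 0.0122) and when only E and RE libraries were fitted (adjusted p = 0.0146). *Cdsn* in M vs. RE was called in 9 of 20 alternatives, among them either E library left out, library totals, library weights and the GC content and length trend removed, with values from 1.38 to 2.71 over all 20. The E vs. RE call of *Dsg3* was lost without the first RE library (adjusted p = 0.0117). With a pseudocount of 1 ppm in place of 0.1, *Dsg3* gave 2.40 in E vs. M and 2.34 in E vs. RE, both still called, and *Cdsn* −3.97 in E vs. M. *Kazn*, listed in the table under an older symbol and coding for kazrin, a periplakin partner, fell by 1.497 in E vs. M (adjusted p = 0.000897), rose by 1.07 in M vs. RE (adjusted p = 0.00511) and was not called in E vs. RE. Its E vs. M call was lost without either M library (adjusted p = 0.0122 and 0.0135), and its M vs. RE call in 8 alternatives (value 0.95 to 1.27), among them any M or RE library left out (adjusted p = 0.0428 to 0.0548).

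Among the cornified envelope genes, 14 of 31 listed were in the table and 7 of these passed the filter. In E vs. M, 1 of the 7 was called higher and 4 lower in M cells, in M vs. RE 3 higher and 1 lower, and 1 in each direction in E vs. RE, with a median log2 fold change of −1.35, 2.12 (2.17 with genes at the floor set to their bound) and 0.55. Of all genes tested, 17%, 12.9% and 9.37% were called in these comparisons. The list's summed level was 17.3 to 19.8 ppm in E cells, 7.19 to 7.64 ppm in M cells and 19.6 to 26.8 ppm in RE cells. *Tgm1*, the transglutaminase that crosslinks envelope proteins at the membrane, was at 10.1 and 7.80 ppm in E cells, 1.04 and 0.982 ppm in M cells and 13.9 and 11.8 ppm in RE cells. It fell by 3.01 in E vs. M (limma adjusted p = 5.77e-05) and rose by 3.54 in M vs. RE (adjusted p = 3.24e-05), the same order of states as *Perp*, with −2.30 and 2.78 for a pseudocount of 1 ppm. *Tgm5*, another epidermal transglutaminase, was at 6.07 and 3.55 ppm in E cells and 10.46 and 5.397 ppm in RE cells, and at 0.0719 and 0.0485 ppm in M cells, at or under the limit of 3 reads' worth per library. Taken against this limit, *Tgm5* in M cells was at least 66.1-fold below the mean of the E libraries and at least 108.9-fold below the mean of the RE libraries. The second E and the second RE library lay below these means, so the bound is lower for them. *Casp14*, the caspase of epidermal differentiation, was near 0 in E cells (0.0926 and 0.0260 ppm), at 4.65 and 5.12 ppm in M cells and at 0.420 and 0.348 ppm in RE cells. It was called higher in M cells in E vs. M (adjusted p = 4.09e-05), with no fold given for levels this near to 0, and fell by 3.37 in M vs. RE (adjusted p = 0.000254). Its E vs. RE call (adjusted p = 0.00902) was lost in 10 of 19 alternatives, among them any M or RE library left out (adjusted p = 0.0315 to 0.091), library totals (0.0119), no filter (0.0146), library weights (0.0283) and a pseudocount of 1 ppm, which gave 0.39. *Abca12*, a lipid transporter of the epidermal barrier, fell by 3.41 in E vs. M (adjusted p = 0.00218) from 1.05 and 3.46 ppm, and its call in that comparison was lost without either M library (adjusted p = 0.0232 and 0.0113). The value was −4.20 and −2.60 without the first or the second E library and −1.47 with a pseudocount of 1 ppm. The remaining calls, named after their values were seen, were *Aloxe3*, a lipoxygenase of the barrier, lower in M and RE than in E cells (−1.35 and −1.95, adjusted p = 0.00793 and 0.00307), and *Scel*, the envelope precursor sciellin. *Scel* was at 0 in M cells, at 0.0944 and 0.156 ppm in E cells and at 0.379 and 0.296 ppm in RE cells. Its mean in RE cells was 4.64-fold above the limit of detection. Only the RE libraries, where it was highest, carried *Scel* past the filter. Its call as higher in M vs. RE, and the list median of 2.12, which is its value, rest on that selection.

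Of the plakins and hemidesmosome genes, 7 were tested, and only *Col17a1* was called: the gene of the hemidesmosomal collagen XVII rose by 2.22 in E vs. M (limma adjusted p = 0.00364) and fell by 2.14 in M vs. RE (adjusted p = 0.00555). Of all genes tested, 17% and 12.9% were called in these comparisons. The levels of *Col17a1* were low, at 0.483 and 1.19 ppm, 3.46 and 4.48 ppm, and 0.895 and 0.747 ppm. E vs. RE gave 0.08, which turned to −0.0014 with scaling by library totals. With a pseudocount of 1 ppm the called values were 1.45 and −1.44. The E vs. M value was 1.64 and 2.77 without the first or the second E library, and both calls were lost without any M library (adjusted p = 0.0238 and 0.039 in E vs. M, 0.0343 and 0.0546 in M vs. RE) or RE library (0.0108 and 0.0107, 0.0391 and 0.0471). Fitting only E and M libraries also ended the first call (adjusted p = 0.0105), and using no filter the second (adjusted p = 0.0127). In E vs. RE limma called 0 of these 7, beside 9.37% of all genes, and 3 had an unadjusted p below 0.05, beside 43.5%.

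The genes of the p53 family and its targets, the group that *Perp* also belongs to, were not called in E vs. M. By limma 0 of 11 tested were called, beside 17% of all genes, and 5 had an unadjusted p below 0.05, beside 50.9%. *Trp63*, the gene of p63, was at 59.0 and 81.7 ppm in E cells, 44.7 and 54.9 ppm in M cells and 173 and 158 ppm in RE cells. It rose by 1.74 in M vs. RE (limma adjusted p = 0.000502) and was higher in RE than in E cells by 1.25 (adjusted p = 0.00346). *Cdkn1a*, the cell cycle inhibitor p21, and *Zmat3* were lower in RE than in E cells, by −1.16 (adjusted p = 0.00208) and −1.12 (adjusted p = 0.00611). *Perp* in these libraries was lowest in M cells, with no call between E and RE cells, and *Cdkn1a*, at 23.8 and 27.2 ppm, 17.4 and 19.0 ppm, and 10.9 and 11.7 ppm, was lowest in RE cells. The E vs. RE calls of these 3 genes were lost without any M or RE library (adjusted p = 0.01 to 0.0798) and when only the E and RE libraries were fitted (adjusted p = 0.0134 to 0.0259), that of *Trp63* also once a GC content and length trend was removed (0.87), that of *Zmat3* also without a filter (adjusted p = 0.0112) and without the second E library (−0.84), and the M vs. RE call of *Trp63* without the first RE library (adjusted p = 0.0109).

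In the adherens junction, the neighbouring junction that shares plakoglobin, 2 of 9 genes tested were higher and 0 lower in E vs. M, 0 higher and 1 lower in M vs. RE, with 1 higher and 2 lower in E vs. RE. Of all genes tested, 17%, 12.9% and 9.37% were called in these comparisons. *Vcl*, the actin linker vinculin, was at 88.5 and 135 ppm in E cells, 601 and 649 ppm in M cells and 399 and 385 ppm in RE cells. It rose by 2.51 in E vs. M (limma adjusted p = 0.000102) and stayed above E cells in RE cells by 1.84 (adjusted p = 0.00107). *Nectin1*, an immunoglobulin-like adhesion molecule, rose by 1.04 in E vs. M (adjusted p = 0.00181), fell by 2.15 in M vs. RE (adjusted p = 7.42e-05) and was lower in RE than in E cells (−1.11, adjusted p = 0.00274), and *Nectin2* was lower in RE than in E cells (−1.37, adjusted p = 0.00402). The *Nectin1* rise with TGFβ1 was 0.74 with scaling by library totals, 0.91 without the first E library and 1.15 and 0.92 (adjusted p = 0.0156 and 0.0311) without the first or the second M library, and 0.83 once a GC content and length trend was removed, and was then not called. The E vs. RE calls of both nectins were lost without any M or RE library (adjusted p = 0.0109 to 0.0557) and when only E and RE libraries were fitted (adjusted p = 0.0149 for each), that of *Nectin1* also without the second E library (−0.98), and that of *Vcl* without either RE library (adjusted p = 0.0232 and 0.0167). The E vs. M call was gained by *Nectin2* without the first E library (−1.22) and with scaling by library totals (−1.25).

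**Figure D5:**
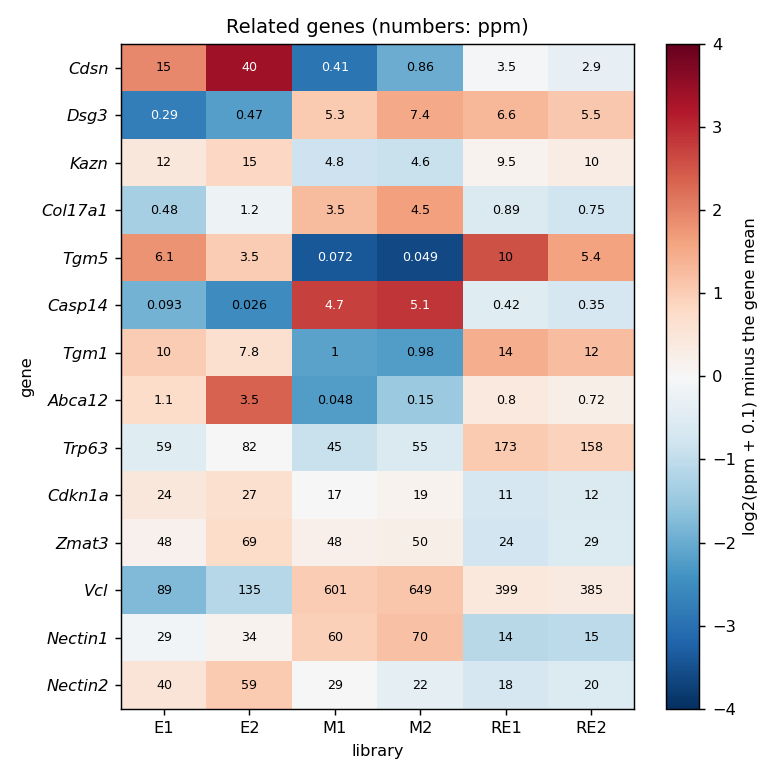
Levels of 14 related genes in the 6 libraries (E1 and E2, M1 and M2, RE1 and RE2), coloured by log2(ppm + 0.1) minus the mean of the gene (colour bar) and printed as ppm in each cell. *Tgm1* and *Tgm5* are lowest in M cells, *Casp14* and *Vcl* are highest there, and *Dsg3* is higher in M and RE cells than in E cells.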

How the data were processed

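RNA of 6 libraries (E, M and RE, 2 each) had been sequenced, and the labels of the submitters' processing notes name Bowtie, TopHat2 and edgeR. The mouse genome build NCBI-m37 is the one given by the authors. The table deposited by the authors holds 1 value per gene and library, which was taken as signal, that is coverage in sequenced bases: the totals run from 1789125650 to 2396427835, and 44.8 to 48.4% of the values from 1 to 400 are multiples of the read length of 50. A count model was therefore not used. Libraries were scaled by trimmed mean of M values (30% and 5% trimmed, factors 0.871 to 1.12), expressed as ppm of the library and tested as log2(ppm + 0.1) with limma 3.58.1 in R 4.3.3, with a trended prior, all 6 libraries and the state as the only term. Fold changes on this scale understate those of low genes. The test took the 13893 of 17428 genes that reached 500 bases, which is 10 reads' worth, in 2 or more libraries. A call needed a log2 fold change beyond 1 and a Benjamini-Hochberg adjusted p below 0.01. The 95% intervals use limma's moderated degrees of freedom. The limit of detection was set at 3 reads' worth (150 bases) per library and covers counting error only. Levels per kilobase use the longest-coding transcript of GENCODE vM21, matched by symbol to a later build than the authors', so that no coordinates were taken from it. On simulated data for E vs. M (200 genes changed by 2 on the log2 scale, 13843 genes run), 172 of the changed genes were tested, 50.6% were called in the right direction and 0 unchanged genes were called. The simulation gave each gene the same spread in every state. In the data the SD of the log2 difference was 0.558 between the E libraries and 0.318 between the M libraries. How often unchanged genes are called at such an unequal spread was therefore not shown. The 10 genes and the lists were chosen with earlier results of these data known. Named are all 10 genes, from each list up to 4 genes called in any comparison with the largest change, and the 3 genes most like the largest called rise and fall, of which 1 is not reported here. *Dsg1a*, *Dsg1b*, *Dsg1c*, *Dsg4*, *Dsc3*, *Eppk1* and *Flg* are not analysed here. Settings varied were the scaling, the filter, the pseudocount, the thresholds, library weights, the libraries in the fit, the replicate number, the length used and each library left out.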

Additional observations from a re-analysis of the deposited data

How the results depend on the processing

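The calls of *Ppl*, *Perp*, *Evpl*, *Jup*, *Pkp1* and *Pkp2* in E vs. M and of *Ppl*, *Perp* and *Pkp2* in M vs. RE held in all 20 alternatives, 3 of which (scaling over the genes tested, and a GC content and length trend removed without and with the replicate block) were chosen after seeing the data. A fold threshold of 1.5 and an adjusted p below 0.05 were among the 20, and as looser thresholds on the same fit they could not end a call. Of the values of the 10 genes under alternatives, 555 kept direction and side of the threshold, 28 lost the call, 10 gained it and 7 changed sign. The number of the 10 genes called lower in M vs. RE was 2 with library totals, and in E vs. RE it was 1 with library totals, 2 with a fold threshold of 1.5, 1 with the GC content and length trend removed and 1 with that and the replicate block. Fitting only E and RE libraries gave 525 genes called in E vs. RE, where 1302 were called otherwise. With 1 library left out, its state then having 1 library that is assumed to vary like the others, the genes called higher in E vs. M were 3 to 4 of the 10 and lower 3 to 4, in M vs. RE lower 1 to 4 and in E vs. RE lower 0 to 1, and over all genes 945 (without the first M library) to 3362 (without the second E library), 683 to 2337 and 44 to 2348. Some values changed sign. With library totals, which shift the median of all genes to −0.29 in E vs. M and 0.18 in M vs. RE, these were *Dsc2* in E vs. M (−0.034), *Perp* in E vs. RE (−0.0093), *Dsg3* in M vs. RE (0.13) and *Col17a1* in E vs. RE (−0.0014). With 1 library left out, the values in E vs. RE ran from −0.020 (without the first E library) to 0.73 for *Pkp1*, −0.48 to 0.24 (without the second E library) for *Dsg2*, −0.078 to 0.021 (without the first RE library) for *Pkp2* and −0.49 (without the first E library) to 0.66 for *Col17a1*, also −0.035 without the first RE library. *Zmat3* in E vs. M ran from −0.50 to 0.018 (without the second E library), and *Dsg3* in M vs. RE from −0.30 to 0.16 (without the second M library), with 0.062 without the second RE library. With the GC content and length trend removed, without and with the replicate block, *Pkp3* in M vs. RE was −0.00060 and *Col17a1* in E vs. RE −0.21. Over protein-coding length, shares in E, M and RE cells were 46.2, 70.0 and 61.0% for *Pkp1*, 19.6, 23.4 and 20.04% for *Pkp2* and 34.2, 6.53 and 19.0% for *Pkp3*, and in RE cells 52.7% for *Ppl* and 23.1% for *Evpl*. The causes of these changes were not tested, beyond the fewer libraries of those fits.

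The labels give libraries of different states the same replicate numbers and nothing more. Deviations of same-numbered libraries correlated with r = 0.27 (E and M), 0.058 (E and RE) and 0.12 (M and RE) across genes, which are not independent replicates, so the number was not taken as a pairing. With the replicate block, 2431, 1830 and 1284 genes were called in E vs. M, M vs. RE and E vs. RE, and the calls of the 10 genes stayed as reported (4 higher and 3 lower, 2 and 4, 0 and 0). Among other named genes it added *Cdsn* in M vs. RE (adjusted p = 0.00573) and ended *Casp14* in E vs. RE (adjusted p = 0.0101). With 2 libraries a state, a p over the threshold says little about small differences.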
